A study of Mus musculus with 10 samples.

Results

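The genes described here are 8 mouse genes of the chitinase family and of alternative macrophage activation: Chil3, Chil4, Chil1, Chit1, Chia (now Chia1), Retnla, Mrc1 and Mgl2. They were taken by gene name and were 8 of the 27670 genes on the array, measured by 10 of its 41174 probes. Chia1 and Retnla had 2 probes each, and the brighter probe in the lung channel stands for the gene.

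Chitinases cleave chitin, the polymer of fungal walls and arthropod cuticle. The chitinase-like proteins keep the fold of these enzymes but have lost the catalytic activity. In the mouse lung they are secreted by macrophages and airway epithelium and are known markers of type 2 immunity. Macrophages exposed to IL-4 or IL-13 enter a state called alternative activation, which depends on the factor STAT6 and is recognised in mice by Chil3, Retnla and the lectin receptors Mrc1 and Mgl2.

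Lungs of female BALB/c mice, young adults at the start, were compared after 8 weeks of whole body exposure to cigarette smoke or to room air only, with 5 mice in each group. RNA of each lung was hybridised to a whole-genome Agilent array of 60-base probes read in 2 colours. Each value is the log2 ratio of the red signal over the green signal of the same array, so that 1 unit is a 2-fold difference. The arrays lay on 5 slides, each with 1 smoke lung in the first place and the room air lung of the same number in the second. Place on the slide and exposure therefore cannot be told apart.

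The labels name 1 dye and a kit for 1 colour, but the arrays held 2 signals. The Y-linked genes Ddx3y, Eif2s3y and Kdm5d were well above background in green on 10 of 10 arrays and in red on 2, 0 and 1 of them. For the lung genes Sftpc, Scgb1a1 and Ager, red exceeded green by 6.39, 6.72 and 4.83 log2 units. Red was therefore read as the female lung and green as a reference that contained male RNA, which the labels do not state. Directions follow the group that the labels give each scanner file, whereas each column of the authors' table held the values of the array with the same number in the other group.

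Of the 8 genes, 4 rose with smoke, Chil3, Chil4 (whose probe also lists Chil3 transcripts), Retnla and Mrc1, at an adjusted p below 0.05 (limma, Benjamini-Hochberg over 41173 probes), and 0 fell. At an unadjusted p below 0.05, 5 were higher and 1 was lower, against 10.2% and 9.78% of all genes. Among all 27669 genes tested, 8.23% passed in either direction, 4.96% higher and 3.27% lower. Of the probes, 2906 of 41173 passed, or 7.06%. The groups did not overlap for 3 of the 8 genes, Chil3, Chil4 and Mrc1, against 7.89% of all genes. With the slide as a replicate block, 6 of the 8 passed, against 13.8% of all genes, Chia1 (lower) and Mgl2 (higher) being added. In whole lung, more cells of a type and more RNA per cell cannot be told apart.

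**Figure D1:**
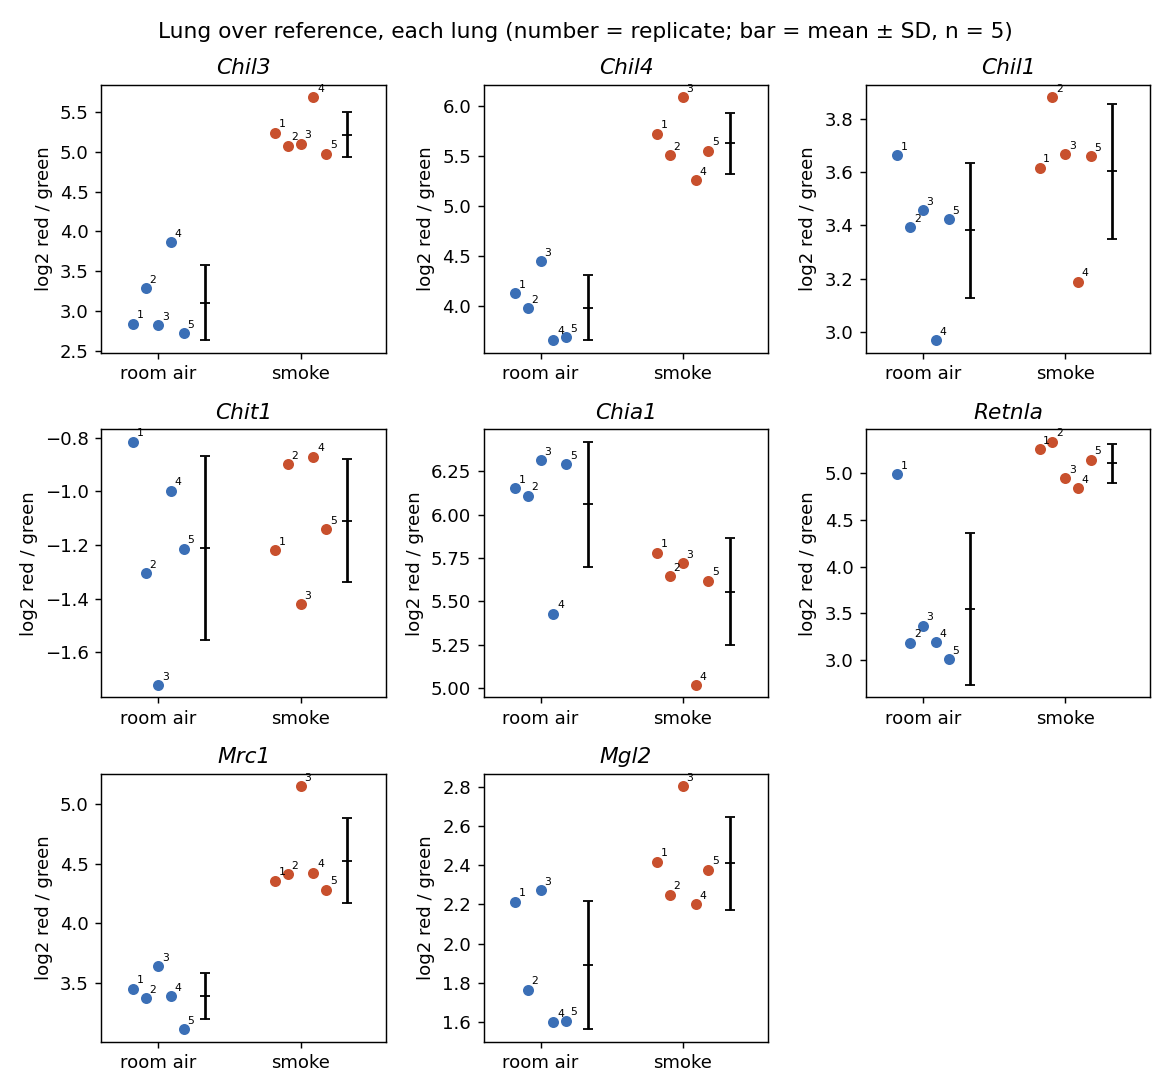
Log2 ratio of lung over reference for each of the 8 genes in every lung, by group, each panel with its own axis. Numbers are replicates, and bars are the mean ± SD of 5 lungs. The smoke lungs lie above all room air lungs for Chil3, Chil4 and Mrc1, and 1 room air lung lies among the smoke lungs for Retnla.

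Chil3 encodes Ym1, a secreted chitinase-like protein abundant in mouse alveolar macrophages. Its log2 ratio was 2.84, 3.28, 2.82, 3.86 and 2.72 in room air lungs 1 to 5, and 5.24, 5.08, 5.11, 5.69 and 4.98 in smoke lungs 1 to 5. By ratio, every smoke lung was above every room air lung, and lung 4 was the highest of its group in both. In red, however, lung 4 was at 14.1 with room air, within a group range of 14.03 to 14.33. With smoke it was the lowest of its group in red, at 16.03. In green, lung 4 was the lowest of each group, at 10.23 and 10.34. The ratio difference was 2.12 (SE 0.21), or 4.33-fold (95% CI 3.14 to 5.98), with an adjusted p of 0.000138. It was the gene with rank 22 by difference among all genes, and smoke was above room air on 5 of 5 slides, by 1.80 to 2.41.

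Chil4 encodes Ym2, the close relative of Ym1, known from stomach and from airway epithelium in type 2 inflammation. Its log2 ratio was 4.13, 3.98, 4.45, 3.67 and 3.69 with room air and 5.72, 5.50, 6.09, 5.26 and 5.55 with smoke. Here too the groups were fully apart, and lung 3 was the highest of each. The difference was 1.64 (SE 0.17), or 3.12-fold (95% CI 2.40 to 4.05), with an adjusted p of 0.000197 and rank 44. Within the slides it ranged from 1.53 to 1.86. The green signal of this probe was well above background on 1 of 5 room air arrays and 5 of 5 smoke arrays, so the ratio leans on a dim reference. With a normexp offset of 0 the difference was 1.10 (adjusted p 0.0698), and in the scanner's own ratio 0.389 (adjusted p 0.748). Red alone, which does not use green, gave 1.96, or 3.89-fold (adjusted p 8.81e-06), by quantile normalization and 2.06 (adjusted p 0.000127) by the 75th percentile.

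By its annotation, the probe named for Chil4 may not separate it from Chil3, which was not tested. The array's annotation lists RefSeq transcripts of both genes for it, 2 in all, while the Chil3 probe lists 1. In green, the mean log2 signal of the Chil3 probe was 11.07 with room air and 10.96 with smoke. That of the Chil4 probe was 6.21 and 6.50. The 60 bases are shown because both values may draw on the same RNA. They span chr3:106022134-106022413 on the minus strand of mm7, a stretch of 280 bases in which the probe is not contiguous.
Chil4 probe: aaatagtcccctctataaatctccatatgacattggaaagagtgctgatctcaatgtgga

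The upstream sequences of both genes are also alike. They are shown, from RefSeq on GRCm38.p6 (C57BL/6J, not the BALB/c of these mice), because the values of both probes rose. Each holds the 250 bases before the start, read in the direction of the gene. Chil3 lies at chr3:106167565-106167814 and Chil4 at chr3:106219480-106219729, both on the minus strand. Aligned over 223 columns with 2 gap columns, 201 bases were identical, or 90.1%.
Chil3: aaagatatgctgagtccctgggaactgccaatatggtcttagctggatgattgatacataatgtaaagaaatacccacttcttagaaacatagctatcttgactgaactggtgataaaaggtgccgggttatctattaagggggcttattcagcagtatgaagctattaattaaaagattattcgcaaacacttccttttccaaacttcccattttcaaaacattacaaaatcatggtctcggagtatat
Chil4: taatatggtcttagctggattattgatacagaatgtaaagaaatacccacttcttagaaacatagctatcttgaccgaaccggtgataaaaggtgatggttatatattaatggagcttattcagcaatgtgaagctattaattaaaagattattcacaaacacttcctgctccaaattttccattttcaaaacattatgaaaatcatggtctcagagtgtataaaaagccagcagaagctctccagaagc

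Chil1 encodes the chitinase-like protein that is the mouse counterpart of human CHI3L1. Its ratio was 3.66, 3.39, 3.46, 2.97 and 3.42 with room air and 3.62, 3.88, 3.67, 3.19 and 3.66 with smoke. The groups overlapped, with a difference of 0.22 (SE 0.14) and an adjusted p of 0.491. The 2 signals behind this ratio were high and low on the same arrays, however. In red, 4 room air lungs lay at 13.1 to 13.2 log2 units, room air lung 1 at 15.0, and the smoke lungs at 15.1 to 15.3. In green, the mean was 10.2 (SD 0.707) with room air and 11.6 (SD 0.300) with smoke, a difference of 1.45 that was the fourth in size of 41173 probes but did not pass (adjusted p 0.553). Room air lung 1, at 11.4, was the highest of its group in green as well. With red alone after quantile normalization, Chil1 was 3.05-fold higher with smoke (adjusted p 0.0116).

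Chit1 and Chia1 are the family's active enzymes, chitotriosidase and the acidic chitinase of lung epithelium and stomach. Chit1 ranged from -1.72 to -0.81 with room air and from -1.42 to -0.87 with smoke. Its difference was 0.10 (adjusted p 0.853), with overlapping groups. Chia1 was 6.15, 6.11, 6.31, 5.43 and 6.29 with room air and 5.78, 5.65, 5.72, 5.02 and 5.62 with smoke. By ratio, all 5 smoke lungs lay below room air lungs 1, 2, 3 and 5, but 4 of them lay above room air lung 4. Lung 4 had the lowest ratio of each group. In red, the room air lungs lay at 12.81 to 13.51, with lung 4 at 12.86, and the smoke lungs at 12.2 to 12.55. In green, lung 4 was the highest of each group, at 7.43 and 7.18. The ratio difference was -0.50 (SE 0.18), with an adjusted p of 0.152. The dimmer probe gave -0.57 (adjusted p 0.0938). Chia1 was lower with smoke on 5 of 5 slides, by -0.67 to -0.37, and passed with the slide as a replicate block (adjusted p 0.00123) and with red alone (0.581 of room air, adjusted p 0.00537). It was smaller in the scanner's ratio, at -0.0916 (adjusted p 0.954), with scale normalization, at -0.228 (adjusted p 0.833), and with a normexp offset of 0, at -0.237 (adjusted p 0.764).

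Retnla encodes resistin-like molecule alpha, also called FIZZ1, a secreted product of alternatively activated macrophages and of lung epithelium. Its ratio was 4.99, 3.19, 3.37, 3.19 and 3.01 with room air and 5.25, 5.34, 4.94, 4.84 and 5.14 with smoke. Room air lung 1 lay within the smoke group, and the other 4 lay below every smoke lung. The difference was 1.55 (SE 0.32), or 2.94-fold (95% CI 1.81 to 4.78), with an adjusted p of 0.0126 and rank 55. The second probe, which shares 50 bases with the first and so is no independent measure, gave 2.82-fold (adjusted p 0.013). Without room air lung 1 the difference was 1.91 (adjusted p 1.24e-06). Within slides it was 0.27 on slide 1 and 1.58 to 2.15 on the other slides.

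Both signals behind the Retnla ratio were higher with smoke. In red, 4 room air lungs lay at 9.58 to 9.83 log2 units, and the mean was 10.3 (SD 1.49) with room air and 14.4 (SD 0.177) with smoke, a difference of 4.02. In green it was 6.79 (SD 0.695) and 9.25 (SD 0.172), a difference of 2.47 (adjusted p 0.0216). The 2 Retnla probes held ranks 1 and 2 of 41173 by green difference. Across the array, the median size of a green difference was 0.0297, 9 probes exceeded 1, and 0.0243% passed the threshold in green. The green signal, read here as a reference, thus differed between the groups at Retnla, and the source of that difference was not tested. With red alone after quantile normalization, Retnla was 16.2-fold higher (adjusted p 0.00287), and 7 of the 8 genes passed, against 6.67% of all genes. With a normexp offset of 0 its ratio difference was 0.515 (adjusted p 0.141), and in the scanner's ratio 0.0983 (adjusted p 0.853).

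**Figure D2:**
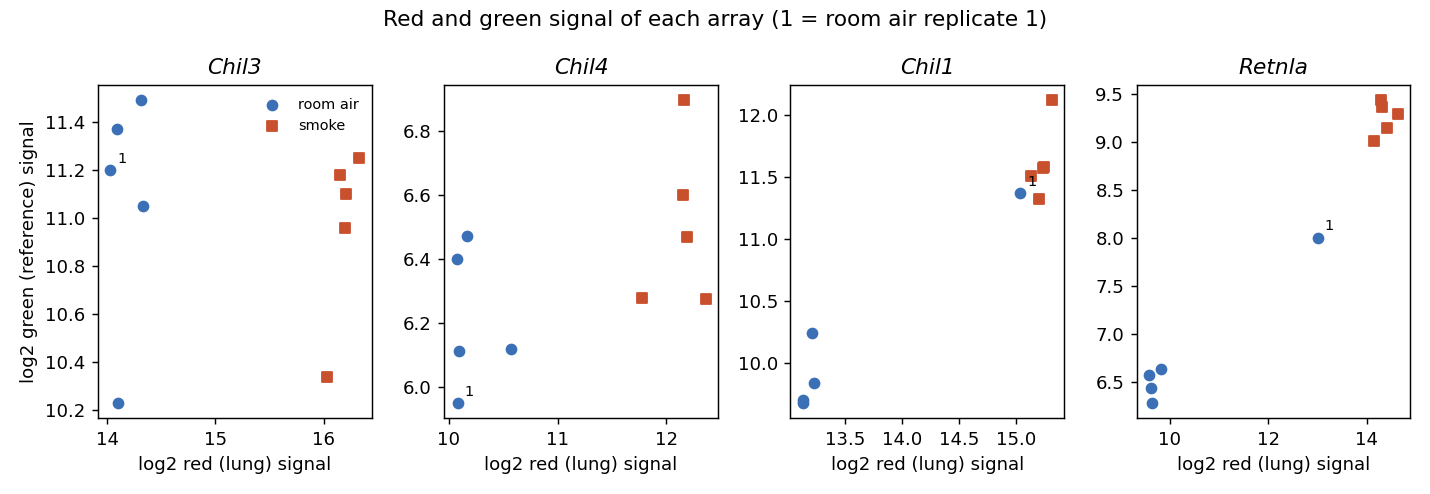
Log2 red (lung) signal against log2 green (reference) signal of each array for Chil3, Chil4, Chil1 and Retnla, with 5 room air (circles) and 5 smoke arrays (squares). For Retnla and Chil1 green is higher where red is higher, and room air replicate 1 lies near the smoke arrays. For Chil3 the mean green difference was -0.10.

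The upstream window of Retnla held the STAT6-type motif TTCNNNNGAA, found in 5.85% of 32841 upstream windows of 250 bases and in 1 of the 8 members. It ended 135 bases before the start. The motif equals its own reverse complement, so 1 search covers both strands, and a match to letters is a description and not a bound site. Only the spacing in this motif was searched. The windows of Chil3 and Chil4 shown above hold the same outer bases with 1 free base fewer between them. How often that shorter spacing occurs, in the members or in all windows, was not tested. The Retnla window is shown because Retnla is the member with the motif as searched, given in capitals. It lies at chr16:48842359-48842608 on the plus strand of GRCm38.p6.
Retnla: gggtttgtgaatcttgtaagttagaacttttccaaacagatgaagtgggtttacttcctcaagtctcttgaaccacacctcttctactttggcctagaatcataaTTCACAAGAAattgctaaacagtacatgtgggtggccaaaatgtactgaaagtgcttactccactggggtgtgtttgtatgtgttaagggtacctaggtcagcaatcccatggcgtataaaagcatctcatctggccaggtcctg

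Mrc1 encodes the mannose receptor CD206, an endocytic lectin of alveolar macrophages and of alternatively activated macrophages. Its ratio was 3.45, 3.37, 3.64, 3.38 and 3.105 with room air and 4.36, 4.41, 5.15, 4.43 and 4.28 with smoke. The groups did not overlap, and smoke lung 3 stood above the rest. The difference was 1.14 (SE 0.16), or 2.20-fold (95% CI 1.73 to 2.79), with an adjusted p of 0.00115 and rank 140. It was positive on 5 of 5 slides, by 0.91 to 1.52. Green was well above background on 1 array of each group, and in the scanner's ratio the difference was 0.905 (adjusted p 0.121). With red alone after quantile normalization it was 1.22 (adjusted p 0.000165).

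Mgl2, a galactose-binding lectin also known as CD301b, was 2.21, 1.76, 2.27, 1.60 and 1.60 with room air and 2.42, 2.25, 2.81, 2.20 and 2.38 with smoke. Room air lungs 1 and 3 reached the smoke range. The difference of 0.52 (SE 0.16) had an adjusted p of 0.0786, and 0.00414 with the slide as a replicate block.

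**Figure D3:**
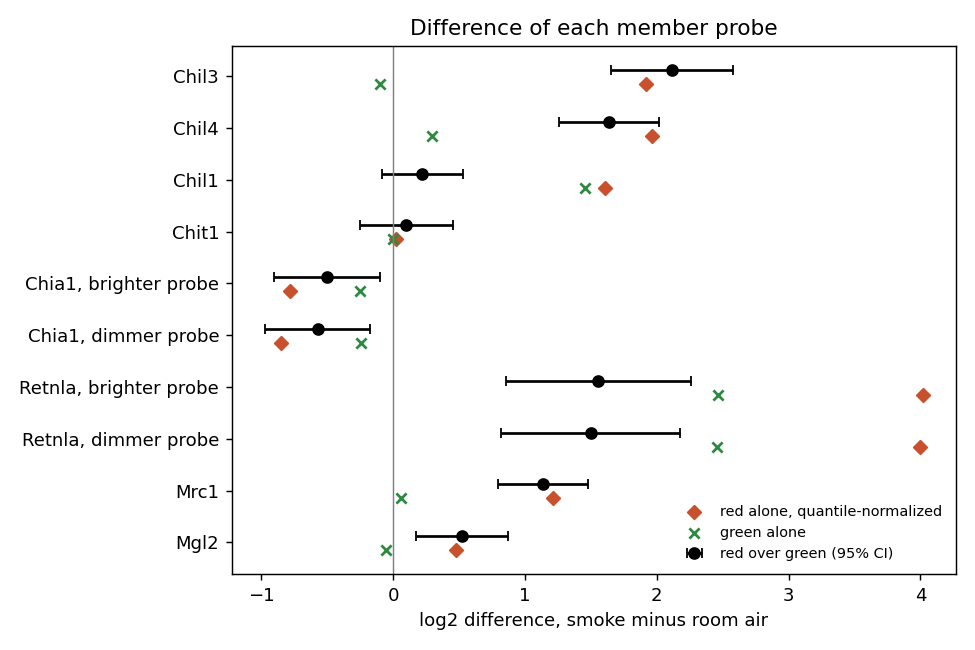
Log2 difference of smoke minus room air for the 10 probes, as the ratio of red over green with its 95% confidence interval (circles), for red alone after quantile normalization (diamonds) and for green alone (crosses). For both Retnla probes and Chil1 green lies far from 0, at 2.47, 2.46 and 1.45.

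Genes with the most similar profile were sought among 13974 genes well above background in red on all 10 arrays. Over the 10 arrays, Chil3 was most like Tk1 (Pearson r 0.989), Ap5s1 (0.984) and Slc46a3 (0.984). Chil4 was most like Pygl (0.993), Atp6v0d2 (0.991) and Havcr2 (0.986). Retnla was most like Noxo1 (0.992), Lcn2 (0.991) and Ch25h (0.988), and Mrc1 like Serpind1 (0.986), Cd200r1 (0.983) and Il7r (0.981). These values are descriptions that include the difference between the groups. After each group's mean was removed, the nearest were Gpr119, Phxr5 and Tfap2a for Chil3 (r 0.958 to 0.970), and Plxnb1, Rsph4a and Pifo for Chil4 (0.966 to 0.977). For Retnla they were Nfkbia, Noxo1 and Cd14 (0.979 to 0.988), and for Mrc1 Grk4, Tmtc1 and Nhlrc1 (0.953 to 0.968). The largest deviation of Retnla from its group mean was 1.44, in room air lung 1, and that lung may carry the values for Retnla. For Chil3 the largest was 0.76, in room air lung 4, where its green signal was the lowest of the group. Arrays of 1 slide share that slide in these comparisons.

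The wider setting of the members was described by 17 gene lists with 180 distinct genes measured, of which 47 passed, 41 higher and 6 lower, beside the 8.23% of all genes. In the scanner's ratio 30 passed, and without room air lung 1, 73. Of the 47, 34 passed in each of the 10 fits that left out 1 lung. The other 13 passed in fewer, Il1rn, Fcgr1 and Fcer1a in 1 of 10, Ptgs1, Cd44 and Plet1 in 2, Tlr2, Irf1 and Ccr7 in 3, Marcks in 4, Tmem219 in 5, Mmp8 in 6 and Bhlhe40 in 9. The sign with red alone was the same for all 47. The median difference over all genes was -0.00416. The other chitinase family genes, Chid1, Ctbs, Ovgp1, Chil5 and Chil6, gave 0 calls of 5, with differences from -0.04 to 0.18 (median 0.0215, and 0.00753 to 0.0678 in fits without 1 lung). The other resistin-like genes, Retn, Retnlb and Retnlg, gave 0 of 3, with differences from -0.60 to 0.07 (median -0.434, and -0.122 without room air lung 1). In limma, 0 of these 8 passed with the slide as a block either, and at an unadjusted p below 0.05 the counts were 0 of 5 and 1 of 3. Ovgp1 was higher when room air lung 1 was left out. In red, Chil6 was well above background on 1 of 5 arrays in each group, Chil5 on 3 and 2, and Retnlb on 1 and 2, so these differences lie near background.

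Of 12 genes of arginine and polyamine metabolism, 1 passed (median 0.127). It was Gatm, which makes a precursor of creatine, at 1.51-fold (adjusted p 0.00236). Nos2, which makes nitric oxide from arginine, had a difference of -0.05 (adjusted p 0.763). Ass1, Asl, Odc1, Oat, Srm, Sms, Sat1, Slc7a1, Slc7a2 and Azin1 lay between -0.12 and 0.44. Without room air lung 1, 4 of the 12 were higher, Odc1, Srm and Slc7a2 beside Gatm, and without smoke lung 2 Azin1 was lower.

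Upstream of the members, 0 of 10 type 2 and alarmin cytokines passed in limma, with or without the block (median 0.0736), and 1 had an unadjusted p below 0.05. The list's mean log2 ratio was 0.29 in room air lung 1, -0.18 to -0.11 in the other room air lungs and 0.10 to 0.21 with smoke. When room air lung 1 was left out, 3 of 10 were higher, Il33, Csf1 and Csf2. Il4, Il13, Il33, Tslp, Il10, Csf1 and Csf2 had differences from 0.03 to 0.84, and Il5, Il9 and Il25 were never well above background in red. Of 9 receptors, 3 rose, Crlf2 (1.38-fold), Csf1r (1.49-fold) and Il17rb (1.18-fold), with a list median of 0.203. Il4ra, the shared chain for IL-4 and IL-13, had a difference of -0.20 (adjusted p 0.242), and Il13ra1, Il13ra2, Il2rg, Il1rl1 and Il10ra lay between 0.07 and 0.54. Il10ra passed with the slide as a block (adjusted p 0.0138) and, with Il13ra1, without room air lung 1, and Il1rl1 did without room air lung 4. Of 17 transcription and signalling genes, 4 rose and 1 fell (median 0.177). Egr2 rose 2.14-fold, Pparg, the lipid-sensing factor of alveolar macrophages, 1.72-fold, Bhlhe40 1.70-fold and Ppargc1b 1.32-fold, while Klf4 fell to 0.551 of room air. Stat6 itself had a difference of 0.14 (adjusted p 0.323). Irf4 and Batf3 were higher with the slide as a block (adjusted p 0.0173 and 0.026). Without room air lung 1, 8 of the 17 were higher, Batf3, Cebpb, Cish and Myc being added, and without room air lung 5 Irf4 was.

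Of 27 other genes induced with alternative activation, 10 rose and 1 fell (median 0.209). The median was 0.103 without room air lung 5, 0.106 without smoke lung 3, 0.119 without room air lung 2 and 0.155 to 0.263 without 1 of the others. The lipid receptor Trem2 rose 8.15-fold (adjusted p 3.45e-09), the scavenger receptor Msr1 4.30-fold and the glucan receptor Clec7a 3.11-fold. Il1rn rose 2.70-fold, Ccl8 2.37-fold, Cd200r1 2.25-fold, Igf1 1.94-fold and Matk 1.67-fold, with Ptgs1 and Pdcd1lg2 below 1.5-fold, and Cd36 fell to 0.704. Folr2 passed with the block (adjusted p 0.0363) and without room air lung 3. Ccl17 had a difference of 1.39 with an adjusted p of 0.129 and passed without room air lung 1, and Ccl24 and Clec10a had -0.45 and -0.38, neither passing. Of 9 genes of chitin handling or binding of chitinase-like proteins, 5 rose (median 0.221). They were Lgals3 (4.00-fold), Clec7a, Tlr2 (2.18-fold), Cd44 (1.77-fold) and Tmem219 (1.17-fold). Il13ra2, Ptgdr2, Ager and Fibcd1 had differences from -0.04 to 0.09, with Fibcd1 on 0 of 10 arrays and Il13ra2 on 1 well above background in red. Without room air lungs 2 or 3, or smoke lungs 3 or 5, 2 of the 9 passed, and without room air lungs 4 or 5 or smoke lung 4, 3 did. Of 22 classical activation genes, 3 rose and 2 fell (median -0.0428). Cd86 rose 1.62-fold, Irf5 1.55-fold and Il12b 1.53-fold, and Irf1 and Marcks fell to 0.81 and 0.783. The list's mean was 1.46 in room air lung 1, 0.19 to 0.36 in the other room air lungs and 0.44 to 0.58 with smoke. Without room air lung 1 the median was 0.164 and 8 were higher, Tnf, Il1b, Cxcl9, Cd80 and Fpr2 being added, with 2 lower. In fits without 1 of the others it was -0.156 to -0.0323, the lowest without room air lung 2.

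**Figure D4:**
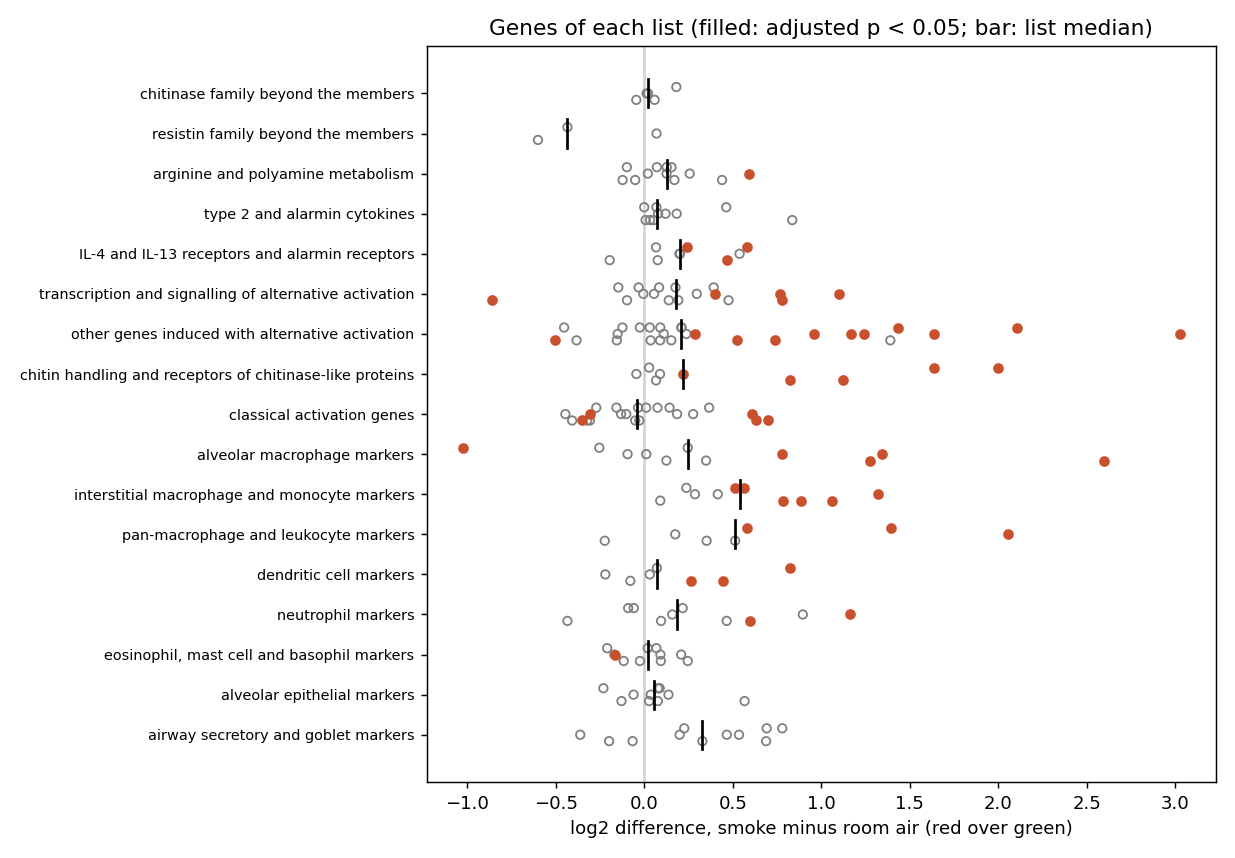
Log2 difference of smoke minus room air for each gene of the 17 lists. Filled points passed an adjusted p of 0.05, open points did not, and the bar is the list median. The list of interstitial macrophage and monocyte markers had a median of 0.539 and that of classical activation genes -0.0428, or 0.164 without room air lung 1.

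Macrophages are a known source of several members, and some of their markers rose too. Of 11 alveolar macrophage markers, 4 rose, Marco (6.05-fold), Itgax (2.53-fold), Plet1 (2.42-fold) and Pparg, and Cidec fell to 0.491 (median 0.246, and 0.155 without room air lung 1). Car4, Fabp4, Fabp5, Siglecf, Krt79 and Ear1 lay between -0.25 and 0.35. The list's mean log2 ratio was 2.96 to 3.48 in room air lungs and 3.34 to 3.93 in smoke lungs. Of 7 pan-macrophage and leukocyte markers, Cd68 (4.16-fold), Adgre1 (2.62-fold) and Csf1r rose, 3 of 7, with Ptprc, Mertk, Lyz2 and Itgam between -0.22 and 0.51 (median 0.514). With the slide as a block, Ptprc (adjusted p 0.0285) and Itgam (0.0312) were higher too and Mertk (0.0351) lower, and without room air lung 1 Ptprc and Itgam were higher. The mean of the 7 was 0.95 to 1.13 with room air and 1.64 to 1.80 with smoke. Of 10 interstitial macrophage and monocyte markers, 6 rose (median 0.539): C1qa, C1qb, C1qc, Cx3cr1, Fcgr1 and Pf4, by 1.43-fold to 2.50-fold. Their mean was 1.90 to 2.45 with room air and 2.53 to 2.99 with smoke. Lyve1, Folr2, Cd163 and Ccr2 had differences from 0.09 to 0.42, and Folr2 passed with the block and Ccr2 without room air lung 1. The part of these cells in the rise of Chil3, Chil4, Retnla and Mrc1 was not tested. Green also moved at some of these genes, by 1.24 for C1qc, 1.03 for C1qa and 0.918 for Marco.

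Markers of other leukocytes were also listed. Of 7 dendritic cell markers, Itgae, Ccr7 and Flt3 rose, by 1.20-fold to 1.77-fold, and Zbtb46, Xcr1, Clec9a and Cd209a lay between -0.22 and 0.07 (median 0.0717). Zbtb46 was lower with the slide as a block (adjusted p 0.042). Of 10 neutrophil markers, Mmp8 (2.24-fold) and Camp (1.51-fold) rose. S100a8, S100a9, Csf3r, Cxcr2, Mmp9, Ltf, Ngp and Retnlg lay between -0.43 and 0.90 (median 0.188). Ltf was higher with the block (adjusted p 0.0307) and, with S100a8, without room air lung 1 (median 0.508). The median was 0.0414 without room air lung 4, 0.116 without smoke lung 1 and 0.328 without smoke lung 4. Room air lung 1, the lung in which Retnla was high, also had the highest neutrophil mean of its group, 3.09 against 1.60 to 1.88. This was not particular to neutrophils, since that lung had the highest mean of its group in most lists. The exceptions were the chitinase family, dendritic cell, alveolar epithelial, and eosinophil, mast cell and basophil lists. Of 11 eosinophil, mast cell and basophil markers, Fcer1a fell to 0.89. Epx, Prg2, Ccr3, Siglecf, Ear6, Il5ra, Mcpt8, Cpa3, Mcpt4 and Tpsb2 lay between -0.21 and 0.25 (median 0.0195, and -0.0111 to 0.0447 in fits without 1 lung, below 0 without smoke lung 2). Cpa3 was lower without room air lung 4. In red, Il5ra was well above background on 0 arrays and Epx and Mcpt8 on 1 or 0 of 5 in each group.

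Airway epithelium is a known source of Chil4, Chia1 and Retnla. Of 10 alveolar epithelial markers, 0 passed in limma (median 0.057), and 0 at an unadjusted p below 0.05. The median was -0.0185 without room air lung 4, -0.0126 without smoke lung 2, 0.0911 without room air lung 3 and 0.116 without smoke lung 4. With the slide as a block, Sftpd was higher (adjusted p 0.0441) and Aqp5 lower (adjusted p 0.0266). They were Sftpc, Sftpb, Sftpa1, Sftpd, Lamp3, Abca3, Ager, Hopx, Aqp5 and Pdpn, with differences from -0.23 to 0.57. Of 11 airway secretory, goblet and ciliated markers, 0 passed, with a median of 0.329 (0.519 without smoke lung 4), and 4 did at an unadjusted p below 0.05. They were Scgb1a1, Scgb3a1, Scgb3a2, Cyp2f2, Bpifa1, Bpifb1, Muc5b, Clca1, Agr2, Spdef and Foxj1, from -0.36 to 0.78. With the slide as a block 4 were higher, Scgb3a1, Bpifb1, Muc5b and Spdef (adjusted p 0.0145 to 0.0474). Bpifb1, Muc5b and Agr2 were higher without room air lung 1, without smoke lung 4 Scgb3a1 and without smoke lung 5 Spdef. Green moved at Scgb3a1 and Bpifa1 too, by 1.42 and 0.872. With red alone their differences were 1.74 and 1.37, against 0.466 and 0.536 in the ratio. Scgb1a1, Cyp2f2 and Clca1 were lower with red alone, at -0.233, -0.424 and -0.419.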

How the data were processed

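Lung RNA of 5 smoke-exposed and 5 room air-exposed mice was measured on 10 arrays. Per the file headers, the spot signals are intensity values from Agilent Feature Extraction 9.5.3.1, where the submitters' processing notes name 9.1. The deposited scanner files also give a log10 ratio, which differed by more than 0.001 from the ratio of the processed signals for 5002 to 8339 of 45018 spots per array. The authors' table holds log2 values. All 286449 of them equal, within 0.0001, the mean of both median signals minus background of the array with the same number in the other group. Its column medians in room air columns 1 to 5 were 8.03, 7.86, 7.34, 8.03 and 7.84, and in smoke columns 7.96, 8.06, 7.81, 7.67 and 7.88. Its scale is therefore log2 without centring, the group of its columns stays unknown, and groups here are those of the scanner files.

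Intensities were corrected with normexp (offset 50) on all spots and normalized by loess within each array without control spots in limma 3.58.1 (R 4.3.3). The fit was tested on simulated data. Outlier spots were left out, spots of a probe averaged, and groups compared with lmFit and eBayes across all probes, two-sided, with Benjamini-Hochberg adjustment. Signals of single channels are after loess and Aquantile normalization. Red was well above background for 64.0% to 76.9% of probes per array. Precision is limited by there being 5 arrays in each group. Of 41174 probes, 22944 were named by accession, 6664 by current symbol, 3108 by synonym and 8458 by the file's name. Upstream windows were searched and aligned with Biopython 1.88.

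Samples with the same number shared a slide. Their deviations from the group means correlated at 0.157, 0.46, 0.461, 0.55 and 0.415, while the median over different numbers was -0.124. The same-number values were all positive, and the numbers were taken to pair the samples, but number 1 (0.157) was below 2 pairs of different numbers, room air 3 with smoke 1 (0.205) and room air 1 with smoke 3 (0.161). They also shared the scan day, which numbers 2 and 5 had in common, and whether anything else was shared was not tested. Members and lists were chosen with earlier results of these data known, and some chosen items are not reported here. Named genes were all members, list genes that passed and differed by more than 1.5-fold, all genes of lists with 12 or fewer, and the 3 most similar genes to each called member by each measure. Other list genes were named after their values were seen. The green signal comparison and the search for outlying red signals were also chosen after seeing the data. The methods' Wilcoxon test and single changes to correction, normalization, channel, filter, probe rule, block and arrays were tried as alternatives.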

Additional observations from a re-analysis of the deposited data

Results flagged for a closer look

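In each group of 5 lungs, a lung was noted where its gap to the nearest other exceeded 0.71 of the group's range. Of 118 groups examined, 21 were noted, and chance gives about 1 in 20 independent groups. These groups were not independent. They held the same lungs, and some held the ratio and the red signal of 1 probe. The count of 21 therefore cannot be judged against that share. No cause was tested.

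Room air replicate 1 was the highest of its group in the following cases. For Retnla its log2 ratio was 4.99, against 3.01 to 3.37 in the others, and 4.06 for the dimmer probe, against 2.13 to 2.49. Its red signal was 13 for Retnla, against 9.58 to 9.83, and 15.0 for Chil1, against 13.1 to 13.2. Its ratio was also high for Il1rn (2.23), Ccl8 (2.56), Clec7a (3.04), Cd44 (0.113), Tlr2 (2.04), Il12b (0.784) and Mmp8 (2.31).

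Replicate 4 had the lowest Chia1 ratio of both groups, 5.43 with room air, against 6.11 to 6.31, and 5.02 with smoke, against 5.62 to 5.78. The green signal of this probe was the highest of each group in replicate 4, at 7.43 and 7.18. Smoke replicate 4 was also lowest for Marco (4.97) and Plet1 (5.71). Smoke replicate 3 was the highest for Mrc1, at 5.15 against 4.28 to 4.43, and for Cd200r1 (2.52), Il12b (1.19) and Flt3 (0.49). The red signal of Chil4 was highest in room air replicate 3, at 10.6 against 10.1 to 10.2. Egr2 was highest in smoke replicate 5 (0.149).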

How the results depend on the processing

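The median red signal over background was 1.68 to 2.82 per array, which limits the measure of dim probes. Each result was recomputed under up to 25 alternatives, 2 of them (scan day as a block, and the authors' table with exchanged columns) chosen after seeing the data. Chil3 passed under 21 of 23, Chil4 under 19 of 22, Retnla under 19 of 23 and Mrc1 under 19 of 21, leaving out Aquantile normalization, which leaves each ratio as it is, and the exchanged columns, which only turn the sign. Adjusted p ranged over the alternatives from 7.34e-07 to 0.983 for Chil3, 3.06e-06 to 0.748 for Chil4, 1.24e-06 to 0.853 for Retnla, 1.38e-05 to 0.121 for Mrc1, 0.0116 to 0.882 for Chil1, 0.001 to 1 for Chia1 and 0.00303 to 1 for Mgl2. The highest values for Chil3, Chil1, Chia1 and Mgl2 came from the authors' table, which holds the mean of both signals and not their ratio. Without that table, the highest for Chil3 was 0.115, in the exact Wilcoxon test. Of the alternatives, 10 were fits without 1 lung, which share most of their lungs. The causes of the changes were not tested.

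With the slide as a replicate block, 5019 probes passed in place of 2906, and Chia1 (-0.50, adjusted p 0.00123) and Mgl2 (0.52, adjusted p 0.00414) passed. No other member's call changed with it. With scan day as a block, Chia1 (-0.50) and Mgl2 (0.52) passed too.

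With a normexp offset of 0, 1660 probes and 2 members passed, Chil4 (1.10) and Retnla (0.515) being lost. In the scanner's ratio 1 member and 30 list genes (in place of 47) passed, and Chil4 (0.389), Retnla (0.0983) and Mrc1 (0.905) were lost. With red alone by the 75th percentile, 1759 probes and 7 members passed, Chil1 (1.74), Chia1 (-0.776) and Mgl2 (0.581) being added; by quantile normalization 7 members passed as well, with Chil1 1.61, Chia1 -0.783 and Mgl2 0.475. With scale normalization Mgl2 passed (0.632). With the filter on green, Mrc1 had no value.

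With the methods' exact Wilcoxon test, whose smallest p is 0.00794, 0 probes and 0 members passed after adjustment (5446 unadjusted, 7479 in limma), so Chil3 (2.12), Chil4 (1.64), Retnla (1.55) and Mrc1 (1.14) were lost at unchanged differences.

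Each column of the authors' table holds the mean of both signals of the array with the same number in the other group. With its columns as named, 16 probes and 0 members passed. Signs turned for Chil3 (-0.934), Chil1 (-1.58), Chia1 (0.971), Retnla (-4.68) and Mgl2 (-0.0215). With columns exchanged each p is the same by construction, with Chil3 at 0.934, Retnla at 4.68 and Chit1 at -0.043. Chil4 and Mrc1 had no value there.

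Leaving out 1 lung at a time gave 2102 to 3660 probes, 4 to 5 members and 36 to 73 list genes, the last without room air replicate 1. Differences ranged from 2.00 to 2.31 for Chil3, 1.52 to 1.76 for Chil4, 0.118 to 0.324 for Chil1, -0.0268 to 0.200 for Chit1, -0.660 to -0.368 for Chia1, 1.42 to 1.91 for Retnla, 0.98 to 1.20 for Mrc1 and 0.422 to 0.616 for Mgl2. Chil3, Chil4, Retnla and Mrc1 passed in 10 of 10, Mgl2 without room air replicate 1 (0.602) or 3 (0.616), and Chia1 without room air replicate 4 (adjusted p 0.019).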
